A study of Homo sapiens with 2 samples.

Results

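The positions described here are C-to-U edits in coding sequence that exchange an amino acid. A listed edit site entered when it lay in a GENCODE 44 coding sequence on its listed strand, when converting the C of the Ensembl canonical transcript to U changed the amino acid without making a stop codon, and when it was listed in 1 library only. Of 213041 distinct edit positions in the series, 47990 met this rule. The RBFOX2-INSCRIBE library held 25145 of them in 5936 genes, out of 121930 listed positions, and the enzyme-only control held 22845 in 5850 genes, out of 103684. A further 2508 amino-acid-changing positions were listed in both libraries and were left out.

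The material was HEK293T cells, an immortalized line from human embryonic kidney, which the labels write as HEK293XT in one field. Both libraries came from methanol-fixed cells that received a purified fusion of the cytidine deaminase APOBEC1 with a nanobody against rabbit IgG. In the RBFOX2 library an anti-RBFOX2 antibody was present to direct the fusion, and in the enzyme-only control it was not. Long-read PacBio sequencing of the cDNA followed, with 1 library per group. All comparisons are therefore between these 2 libraries and have no replicate check, and intervals are exact Clopper-Pearson 95% intervals, or exact Poisson intervals for family densities, and cover counting error only.

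APOBEC1 deaminates cytosine to uracil in RNA, and it favours a cytosine that follows A or U. Because the genetic code is fixed, a C-to-U change in a coding sequence can only exchange certain amino acids, such as threonine to isoleucine or alanine to valine, create a stop codon, or leave the protein unaltered. RBFOX2 is a splicing regulator that binds UGCAUG, and is best known for binding in introns and 3′ untranslated regions.

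The sites with the most converted reads show the sequence in which such edits were found. The edited C is in capitals within 27 bases of the spliced canonical mRNA (hg38, GENCODE 44), written 5′ to 3′. These are the 10 sites with the most converted reads in the RBFOX2 library.
PPIA T119I: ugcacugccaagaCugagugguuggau
PPIA T116I: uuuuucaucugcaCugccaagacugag
MORF4L2 S267F: cuggcaaagaauuCugcaucucucuuu
EIF4A1 T329I: guuuugauuaccaCugaccugcuggcc
HNRNPAB T218I: aaaaaguuccauaCugucaguggaagc
H2AZ1 T127I: ggacaacagaagaCugucuaaaggaug
NPM1 L294F: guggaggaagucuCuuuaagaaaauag
LDHB T276I: caucccgugucaaCaaugguaaagggg
LDHB S275L: auucaucccguguCaacaaugguaaag
CALM2 T147I: guacaaaugaugaCagcaaagugaaga
The 4 sites with the most converted reads in the enzyme-only library follow in the same form.
HNRNPA2B1 S200L: ggcuuuggggauuCacgugguggcggu
C1QBP T270I: caggaguacauuaCuuuucuugaagac
C1QBP T251I: gggguggacaacaCuuuugcagaugag
HNRNPC H49Y: gggcugcucuguuCauaagggcuuugc

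Among the 10 best supported sites of the RBFOX2 library, 7 exchanged threonine for isoleucine, and all 10 had A or U directly 5′ of the edited C. The highest was T119I of PPIA, cyclophilin A, a prolyl isomerase, at chromosome 7 position 44799868 on the plus strand, in exon 4 of 5. It was converted in 24 of 4732 gene reads (0.507%, 0.325 to 0.754). PPIA had 4823 reads in the enzyme-only library, where listing needed 10 converted reads, and absence of the site from that table is part of how the sites were chosen. T116I, 3 codons upstream in the same exon, was converted in 13 reads of the same library. The edit next in rank was T329I of EIF4A1, an RNA helicase of translation initiation (chromosome 17, position 7577906, plus strand, exon 9 of 11), with 17 of 8003 reads (0.212%, 0.124 to 0.340). HNRNPAB, an RNA-binding protein, had 15 of 3002 reads at T218I (chromosome 5, position 178207209, plus strand). LDHB, a lactate dehydrogenase subunit, was edited at neighbouring codons, with 13 of 3922 reads at T276I and 12 at S275L.

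Several of these sites lay near the end of the protein. L294F of NPM1, a nucleolar chaperone, exchanged the last residue of a protein of 294, with 13 of 4867 reads. H2AZ1, a histone variant, was edited at residue 127 of 128 (13 of 6293 reads), and CALM2, a calmodulin gene, at residue 147 of 149 (11 of 1816 reads). Even the best supported positions were thus converted in few reads of their gene, between 0.207% and 0.914% over the 10.

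The 10 best supported enzyme-only sites had fewer converted reads, between 7 and 13, against 11 to 24 in the RBFOX2 library. Of these, 3 exchanged threonine for isoleucine and 8 had A or U directly 5′. Both lists leave out positions listed in both libraries. The part of this choice in the differences between the lists was not tested. S200L of HNRNPA2B1, an RNA-binding protein of the nucleus, was highest with 13 of 4913 reads (0.265%, 0.141 to 0.452) at chromosome 7 position 26196460 on the minus strand. C1QBP, a protein of the mitochondrial matrix, carried T270I and T251I at 11 of 5333 reads each. The others were H49Y of HNRNPC with 9 reads, L178F of PRELID1, L130F of PRDX1, T89I of SRSF9, L25F of HNRNPU and S211F of LDHB with 8 each, and S129F of RPS23 with 7. Many of these abundant mRNAs have near-identical copies in the genome, so reads of such genes are uncertain where the alignment could share them. The LDHB positions also lay in the coding sequence of another annotated gene. S200L of HNRNPA2B1 and L178F of PRELID1 exchanged an amino acid in some but not all of the annotated coding transcripts at their positions.

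Amino-acid-changing edits made up 48.1% of the unshared sites in canonical coding sequence in both libraries, 25145 of 52326 (47.6 to 48.5) and 22845 of 47471 (47.7 to 48.6). The share among all cytosines of the same coding sequences, each gene weighted by its number of sites, was 50.7% with the antibody and 50.1% without it. Observed numbers were therefore 0.948 (0.940 to 0.957) and 0.961 (0.952 to 0.970) of the expected ones. Synonymous edits stood above their expectation, at 1.09 and 1.08, and edits to stop codons below it, at 0.855 and 0.781. The intervals of the amino-acid-changing share overlapped between the libraries.

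The tables list only sites converted in more than 0.2% of the reads of their gene, so a site in a gene of 500 reads or more needs at least 2 converted reads. Of the amino-acid-changing sites, 22271 RBFOX2 sites and 20800 enzyme-only sites rested on 1 converted read. Sites with at least 2 made up 11.4% (11.04 to 11.83) and 8.95% (8.58 to 9.33), and sites with at least 5 made up 0.521% (0.436 to 0.618) and 0.219% (0.162 to 0.288). Synonymous edits had slightly more support, with 12.9% (12.5 to 13.3) and 9.76% (9.37 to 10.2) at 2 reads or more. The median edit fraction was 0.473% and 0.497%. Fractions over 30% occurred at 40 and 50 sites, in genes of at most 6 and 3 reads.

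C-to-U conversion allows 11 exchanges in the nuclear code, and they differed widely in how often they were found. For each exchange the number of sites was divided by the number expected if the sites of a gene had been spread evenly over all its amino-acid-changing cytosines. Threonine to isoleucine, which trades a polar for a hydrophobic side chain, was the most numerous in both libraries, with 5208 RBFOX2 sites (20.7%, 20.2 to 21.2) and 4024 enzyme-only sites (17.6%, 17.1 to 18.1). Its observed over expected ratio was 1.62 (1.58 to 1.66) in the RBFOX2 library and 1.42 (1.38 to 1.46) in the control. Serine to phenylalanine stood at 1.69 (1.64 to 1.74) and 1.63 (1.58 to 1.69), threonine to methionine at 1.49 and 1.42, and leucine to phenylalanine at 1.38 in both. Serine to leucine was nearer to its expectation, at 1.19 (1.13 to 1.26) and 1.07 (1.01 to 1.14).

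The exchanges that start from alanine and proline were found less often than expected. Alanine to valine, the commonest possible exchange in the edited genes of both libraries, reached 0.541 (0.522 to 0.560) and 0.617 (0.596 to 0.639) of its expected number. Proline to leucine stood at 0.635 (0.611 to 0.660) and 0.779 (0.752 to 0.806), and proline to serine at 0.806 (0.780 to 0.833) and 0.882 (0.854 to 0.912). Histidine to tyrosine and the arginine exchanges lay between 0.818 and 0.938 in both libraries. The order was nearly the same in the libraries, but the RBFOX2 ratios reached farther from 1 at both ends.

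**Figure D1:**
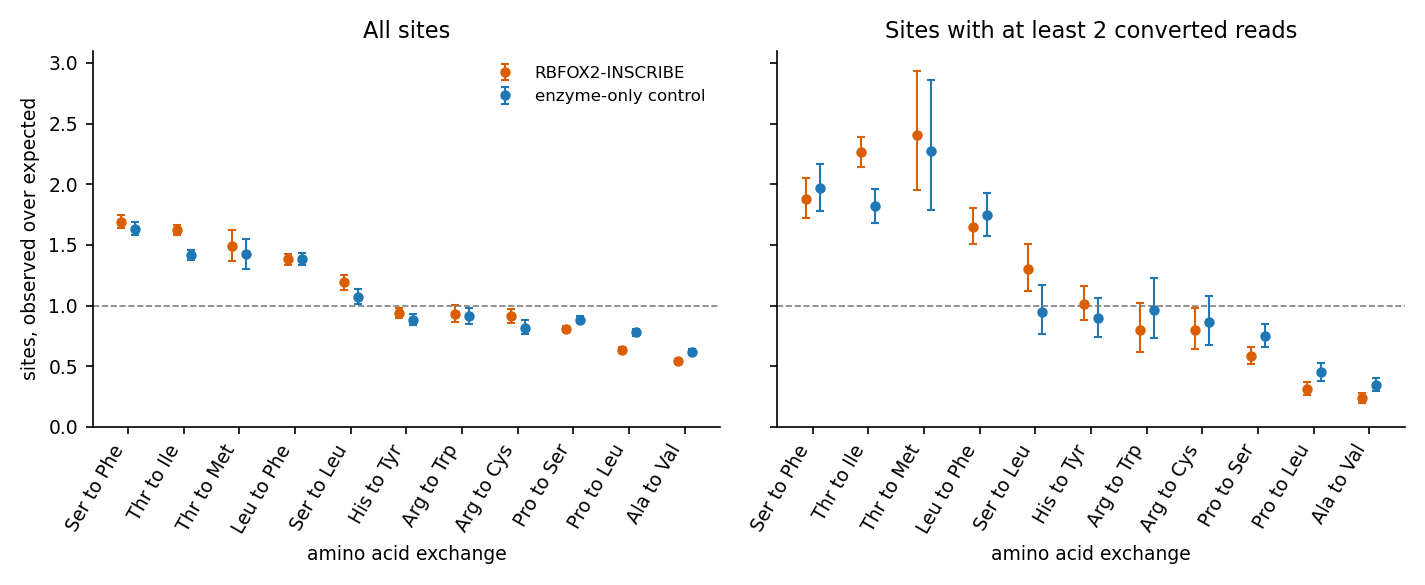
Observed over expected number of amino-acid-changing sites for the 11 exchanges in the RBFOX2-INSCRIBE library (orange) and the enzyme-only control (blue), over all sites (left) and sites with at least 2 converted reads (right). Points are ratios, bars are 95% intervals of counting error and the dashed line marks a ratio of 1; alanine to valine was lowest in every panel, at 0.541 and 0.617 over all sites and 0.236 and 0.348 with at least 2 reads.

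The contrast between exchanges was wider at sites with at least 2 converted reads. There, threonine to isoleucine stood at 2.27 (2.14 to 2.39) in the RBFOX2 library, where it made up 30.7% of 2874 such sites, and at 1.82 (1.68 to 1.96) in the control. Threonine to methionine reached 2.41 (1.95 to 2.94) and 2.28 (1.79 to 2.86), while alanine to valine was at 0.236 and 0.348. Seen from the side of read support, 17.0% of threonine to isoleucine sites in the RBFOX2 library had at least 2 reads, against 5.31% of alanine to valine sites and 5.36% of proline to leucine sites. The corresponding control shares were 11.98%, 5.31% and 4.95%.

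The exchanges differ in the base that precedes the edited C. The second base of every threonine codon is a C after A, that of serine codons of the UCN box a C after U, that of alanine codons a C after G and that of proline codons a C after C. Across all amino-acid-changing sites, A or U stood 5′ of the C at 66.0% (65.4 to 66.6) in the RBFOX2 library, where 43.2% was expected, and at 59.8% (59.2 to 60.5) in the control, where 41.9% was expected. By base in the RBFOX2 library the ratios were 1.56 for A, 1.495 for U, 0.640 for C and 0.562 for G. In the control they were 1.40, 1.45, 0.773 and 0.621. The intervals of A (1.54 to 1.59) and U (1.47 to 1.52) were apart in the RBFOX2 library, whereas those of the control (1.37 to 1.43 and 1.42 to 1.48) overlapped.

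Within threonine codons the base 3′ of the C made a further difference. ACU was edited at 2.28 (2.19 to 2.37) times its expected number in the RBFOX2 library and ACA at 1.64 (1.57 to 1.71), but ACC, which also gives isoleucine, at 0.964 (0.907 to 1.02). The control values were 1.98, 1.41 and 0.928. Serine codons UCU (1.78) and UCC (1.59) stood above UCA (1.19) and UCG (1.19) in the RBFOX2 library. Alanine codons stayed below 1 in every case, from 0.415 for GCA to 0.773 for GCU, and proline CCU edited at its second base, at 1.05 (0.992 to 1.11), was the only codon of the alanine and second-base proline group that came near 1. In the control CCU was at 1.23 (1.17 to 1.30). Over all sites, a U 3′ of the edited C had a ratio of 1.39 in the RBFOX2 library and 1.38 in the control.

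With the same neighbouring bases, ratios were close to each other at the codon positions in some contexts and not in others. Over coding edits of any class, a C between A and U was found at 2.06 (1.97 to 2.15), 2.20 (2.11 to 2.29) and 2.19 (2.11 to 2.28) times its expected number at codon positions 1, 2 and 3 in the RBFOX2 library. A C between G and A was found at 0.424, 0.397 and 0.414 at the same positions. In the control the values were 1.90, 1.93 and 1.99 for the former and 0.421, 0.414 and 0.421 for the latter. A C between A and G, in contrast, stood at 1.79 (1.65 to 1.94) at position 1 of RBFOX2 codons and at 1.40 at both other positions. A C between C and U stood at 1.07 (1.02 to 1.12), 0.996 (0.943 to 1.05) and 1.25 (1.19 to 1.32) at positions 1, 2 and 3 in that library. Among amino-acid-changing sites, the first codon base held 37.3% in the RBFOX2 library, against 37.8% of possible positions.

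With more converted reads the base 5′ of the C became nearly uniform in the RBFOX2 library. A or U preceded the C at 63.6% (62.9 to 64.2) of single-read positions and at 81.7% (80.0 to 83.3) of those converted in 2 reads. The share was 92.1% (89.8 to 94.1) for 3 or 4 conversions, and 99.2% (95.8 to 99.98) of the 131 positions converted in 5 reads or more. In the control the shares were 58.2%, 74.1%, 82.9% and 82.0%, the last over 50 sites. The wider surroundings were also richer in A and U. Over the 10 bases on each side, the 5′ neighbour included, A and U made up 52.0% at RBFOX2 sites against 48.9% at possible positions of the same genes, and 61.0% against 52.4% at sites with 5 or more reads. The enzyme-only values were 50.2% against 47.8%, and 55.3% against 48.8%.

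Sites near the RBFOX2 motif exceeded their expected number in the library made with the antibody and did not in the control. Of the amino-acid-changing RBFOX2 sites, 660 lay within 50 nt of a UGCAUG on the same strand of the genome, 2.62% (2.43 to 2.83) where 2.13% was expected, a ratio of 1.23 (1.14 to 1.33). In the enzyme-only control 436 did, 1.91% (1.74 to 2.09) where 2.01% was expected, a ratio of 0.947 (0.861 to 1.04). The 660 sites were spread over 474 genes, 352 of them with a single such site. A narrower window of 20 nt gave 1.32 (1.17 to 1.48) and 0.885 (0.751 to 1.04), whereas at 200 nt the libraries were not separated, at 1.06 (1.02 to 1.10) and 1.04 (0.998 to 1.08). Amino-acid-changing edits did not stand apart from other coding edits in this respect, since synonymous RBFOX2 edits were at 1.20 (1.11 to 1.29) and edits to stop codons at 1.39 (1.13 to 1.70).

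The share near a motif was larger at better supported amino-acid-changing sites. RBFOX2 sites converted in a single read stood at 1.18 (1.08 to 1.28) of expectation, and those converted in 2 reads at 1.39 (1.07 to 1.77). Positions with 3 or 4 conversions reached 1.63 (1.10 to 2.32). At 5 conversions or more, 17 of 131 positions, in 15 genes, were near a motif, which gave 4.48 (2.67 to 6.89). The control ratios were 0.953, 0.919 and 0.546 for the lower classes, each with an interval that included 1. In its highest class 2 of 50 sites were near a motif, a ratio of 2.67 (0.326 to 9.16), so the libraries are not separated there. Synonymous RBFOX2 edits went from 1.13 (1.04 to 1.23) at a single read to 2.70 (1.46 to 4.49) at 5 reads or more. Of RBFOX2 edits to stop codons with 5 reads or more, 0 of 16 were near a motif. The expected shares were not matched for neighbouring bases, and their part in the rise was not tested. Threonine to isoleucine sites stood at 1.46 (1.25 to 1.70), against 0.860 (0.673 to 1.08) in the control. Threonine to methionine, at 1.46 (0.868 to 2.28), arginine to tryptophan, at 1.44 (0.920 to 2.15), and proline to leucine, at 0.952 (0.687 to 1.28), had wide intervals that overlapped with it. Alanine to valine stood at 1.30 (1.02 to 1.63) in the RBFOX2 library, also above 1, and overlapped with threonine to isoleucine. Its control ratio was 1.01 (0.766 to 1.30).

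**Figure D2:**
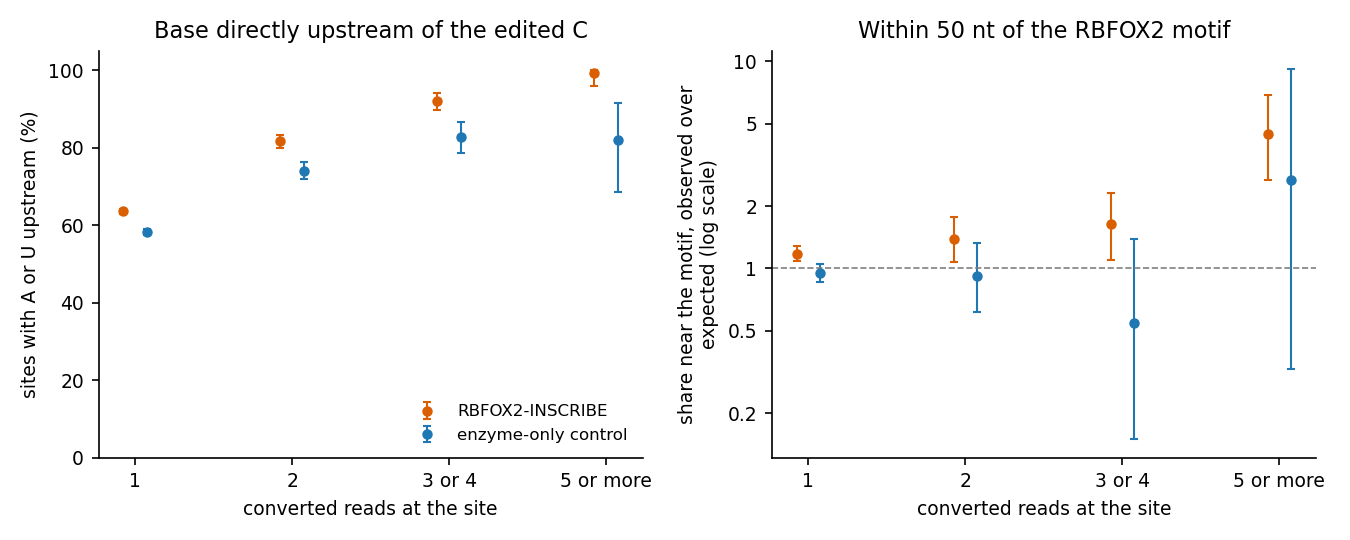
Amino-acid-changing sites by their number of converted reads in the RBFOX2-INSCRIBE library (orange) and the enzyme-only control (blue): the percentage with A or U directly upstream of the edited C (left) and the share within 50 nt of the RBFOX2 motif over that of possible positions (right, log scale, dashed line at 1). Bars are 95% intervals of counting error; the RBFOX2 points climb from 63.6% to 99.2% and from 1.18 to 4.48.

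The C of UGCAUG itself was seldom edited. It was listed at 14 amino-acid-changing RBFOX2 sites, 0.385 (0.210 to 0.646) of the expected number, 12 of which changed histidine to tyrosine and 2 alanine to valine. In the control 16 such sites were listed, 0.562 (0.321 to 0.913) of the expected number. The expected numbers were not matched for neighbouring bases, and this C always lies between G and A. Amino-acid-changing sites with a C between G and A anywhere stood at 0.430 (0.401 to 0.462) in the RBFOX2 library and 0.428 (0.396 to 0.461) in the control. Both values lie within the intervals of the motif C, which was therefore not set apart from its base context.

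The best supported RBFOX2 sites near a motif are shown with it where both fit in 30 bases of spliced mRNA, with the hexamer and the edited C in capitals.
TXN T76I: gaagucaaaUGCAUGccaaCauuccaguu
ERH S24F: acgaauCugugaaugaaUGCAUGgaaggu
SF3B6 S78L: caagaaUGCAUGugaucaccuauCgggauu
In TXN, thioredoxin, a redox protein, the hexamer began 10 nt 5′ of the edited C (chromosome 9, position 110244806, minus strand), which was converted in 10 of 1734 reads (0.577%, 0.277 to 1.06). In ERH, a small conserved nuclear protein, it began 11 nt 3′ of the edited C (chromosome 14, position 69394845, minus strand), with 10 of 1820 reads. SF3B6, a subunit of the spliceosomal SF3b complex, had 8 of 594 reads at S78L (1.35%, 0.583 to 2.64) and 10 other amino-acid-changing sites in the same library. MORF4L2, a chromatin protein, held the most supported site of all near a motif, S267F with 15 of 1642 reads (0.914%, 0.512 to 1.502), and S269F with 10, both in exon 4 of 4 on chromosome X. RPS4X, a ribosomal protein, had 10 of 3245 reads at T78I. Absence of these 6 positions from the control table is part of how the sites were chosen and is no comparison.

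Along the coding sequence, sites were sparse at the start and dense at the end. In the first 10% of the coding sequence, the RBFOX2 library held 0.711 (0.681 to 0.741) of the expected number of sites, and in the last 10% it held 1.42 (1.38 to 1.47) times that number. The control stood at 0.773 (0.741 to 0.807) and 1.33 (1.29 to 1.37), so the gradient ran the same way with and without the antibody. Within 30 nt of the stop codon the ratios were 1.39 (1.30 to 1.48) and 1.22 (1.13 to 1.31), and at 1000 nt or more from it 0.755 and 0.804. The tables give reads per gene and not per position, so the part of read coverage in this gradient was not tested. No site lay in a start codon, since AUG holds no C.

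**Figure D3:**
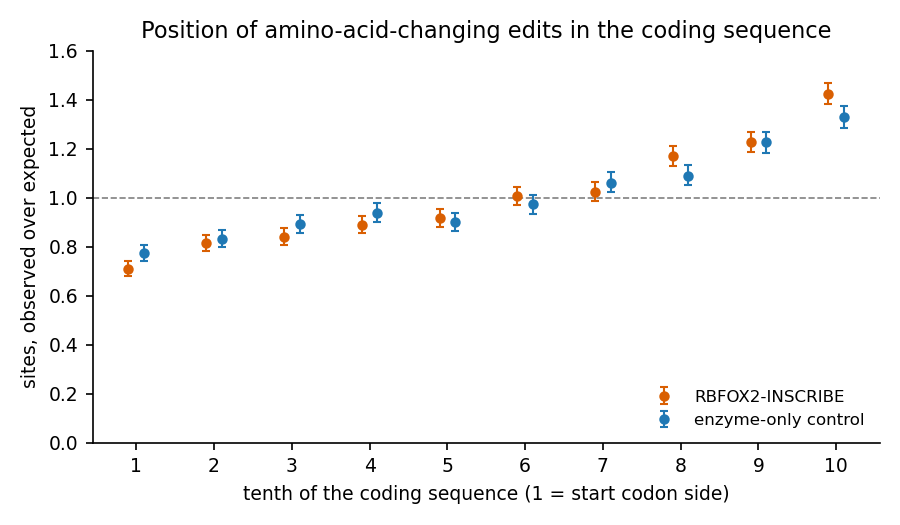
Observed over expected number of amino-acid-changing sites in 10 equal stretches of the coding sequence, from the start codon side (1) to the stop codon side (10), in the RBFOX2-INSCRIBE library (orange) and the enzyme-only control (blue). Bars are 95% intervals of counting error; the ratios go from 0.711 and 0.773 in the first stretch to 1.42 and 1.33 in the last.

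Near exon junctions the numbers stayed close to their expectation. Within 10 nt of a junction there were 3033 RBFOX2 sites, 1.04 (1.01 to 1.08) times the expected number, and 2568 enzyme-only sites, at 0.995 (0.959 to 1.03). The numbers that follow, on neighbouring sites and on proline codons, have no expected value beside them, so clustering was not tested. Another amino-acid-changing site of the same gene and library lay within 10 nt of 14.1% of RBFOX2 sites and 12.1% of enzyme-only sites. Proline codons, which can change at either of their first bases, were edited at both in 148 of 5353 edited proline codons in the RBFOX2 library and in 174 of 5690 in the control.

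The libraries were then compared by number of sites under the same read minimum, that of the deeper library of each gene. Over 6474 genes with such a site there were 24427 RBFOX2 sites and 20898 enzyme-only sites, a ratio of 1.17 (1.15 to 1.19). Over all listed genes, reads summed to 2431345 in the RBFOX2 library and 2233600 in the control. The part of depth in the ratio of 1.17 was not tested. Threonine to isoleucine stood above that ratio, with 5057 against 3691 sites (1.37, 1.31 to 1.43), as did serine to leucine at 1.31 (1.21 to 1.43). Serine to phenylalanine, at 1.23 (1.17 to 1.29), and threonine to methionine, at 1.20 (1.05 to 1.36), had intervals that included the overall ratio. Alanine to valine, at 1.03 (0.976 to 1.09), and proline to leucine, at 0.934 (0.883 to 0.988), stood below it. In the 590 genes that reached 500 reads with and without the antibody the difference was larger, 1390 against 909 sites, a ratio of 1.53 (1.41 to 1.66) where the reads of these genes had a ratio of 1.11. There, threonine to isoleucine counted 406 against 205 sites (1.98, 1.67 to 2.35) and serine to leucine 87 against 38 (2.29, 1.55 to 3.45). Serine to phenylalanine counted 234 against 160 (1.46, 1.19 to 1.80) and threonine to methionine 47 against 27 (1.74, 1.06 to 2.91). Proline to leucine counted 62 against 63. Of the exchanges whose preceding base the codon does not fix, arginine to cysteine (1.28, 1.16 to 1.42), histidine to tyrosine (1.26, 1.17 to 1.36), leucine to phenylalanine (1.18) and arginine to tryptophan (1.15) stood near or above the overall 1.17 over the 6474 genes, and proline to serine (1.05, up to 1.11) lay below it.

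**Figure D4:**
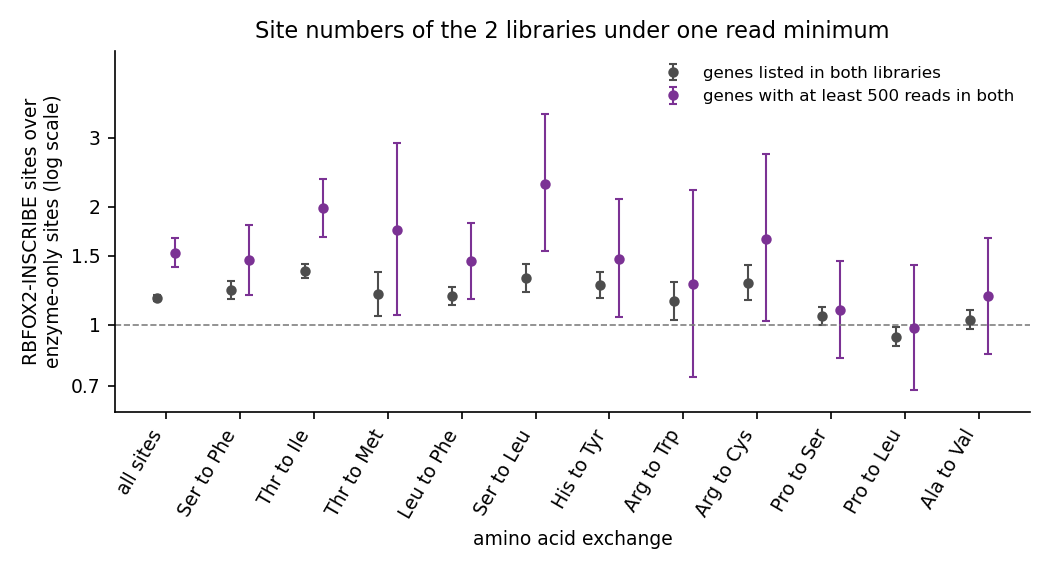
Number of RBFOX2-INSCRIBE sites over number of enzyme-only sites (log scale) for all amino-acid-changing sites and for each exchange, with one read minimum per gene, in genes of both tables (grey) and in those of at least 500 reads each time (purple). Bars are 95% intervals of counting error and the dashed line marks equal numbers; threonine to isoleucine stands at 1.37 and 1.98, proline to leucine at 0.934 and 0.984.

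Per gene, amino-acid-changing sites were counted in 1663 genes with at least 10 over both libraries, as a log2 ratio scaled by the library totals with a pseudocount of 0.5. The ratio was over 1 in 300 genes (18.0%) and under −1 in 265 (15.9%). Over all coding edits, 18.1% of genes lay over 1 and 18% under −1, so the amino-acid-changing sites were near or below the background. Under the common read minimum, 273 of 1586 genes (17.2%) lay over 1 and 216 (13.6%) under −1, where the background was 17.2% and 16.6%. Genes with a site in both libraries numbered 4497, or 75.8% of the RBFOX2 genes and 76.9% of the enzyme-only genes.

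The genes that differed most under the common minimum had sites almost entirely in a single library. DONSON, a DNA replication factor with 190 and 196 reads, had 12 RBFOX2 sites and 0 enzyme-only sites, and 5 of the 12 exchanged leucine for phenylalanine. TRAPPC12, a vesicle trafficking subunit with 120 and 108 reads, also had 12 and 0. ALG13 (83 and 62 reads), MAPKAPK5 (140 and 103) and PDHA1 (772 and 683) had 10 and 0 each. At the other end, CLPP, a mitochondrial protease with 379 and 395 reads, had 1 RBFOX2 site and 25 enzyme-only sites. BCL11A (81 and 116 reads) had 1 and 12, MTBP (57 and 64) 1 and 11, and ACP2 (104 and 114) and ELP2 (121 and 140) 1 and 10 each. Apart from DONSON, each of these genes had more reads in the library with more sites. With 1 library per group such differences have no replicate check.

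The largest numbers of sites fell in genes of 260 to 498 reads. In the RBFOX2 library POLR2B, a core subunit of RNA polymerase II, had 49 sites against 12 in the control, at 310 and 282 reads, and 38 of the 49 had A or U before the C. NAA25 had 34 against 12, RAD51C 33 against 8 and IARS2, a mitochondrial isoleucyl-tRNA synthetase, 33 against 29. In the control SF3B4 led with 44 sites against 20 and CSE1L had 33 against 30. HSPA4, a chaperone, lay on different sides of the listing limit in the libraries. It had 38 enzyme-only sites at 475 reads, where 1 converted read sufficed, and 2 RBFOX2 sites at 502 reads, where it did not. Of these, 6 enzyme-only and 2 RBFOX2 sites had at least 2 converted reads. SF3A2 had 30 enzyme-only sites at 498 reads and 2 RBFOX2 sites at 503, with 2 in each library at 2 reads or more. The part of the limit in these differences was not tested.

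Of RBFOX2 and the 5 target genes discussed in the study, 4 had amino-acid-changing edits in at least 1 library. APP, the amyloid precursor gene, had none in either library at 637 and 630 reads, although 11 other RBFOX2 sites were listed for it. PKM, a glycolytic enzyme, had none, at 3705 reads in the RBFOX2 library. OGT, the O-GlcNAc transferase, had 6 RBFOX2 sites (R555W, R733W, L772F, T798I, T810I and S833F) and 0 enzyme-only sites at 214 and 189 reads, all 6 after A or U. DEPDC1 had 4 RBFOX2 sites (T737I, S738F, L745F and L788F) and 1 enzyme-only site (T292I). DCUN1D4 had 0 and 2, and RBFOX2 itself 5 and 4. None of these sites had more than 1 converted read, and none lay within 50 nt of UGCAUG. In genes of 500 reads or more, as APP and PKM were, sites of 1 converted read are not listed. The 4 genes with edits had at most 370 reads, where 1 converted read sufficed. APP and PKM are thus not comparable with them by number of sites, and the part of this limit was not tested.

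Gene families differed in how densely their coding sequences were edited. Over all genes with a coding site there were 13.8 (13.6 to 13.9) amino-acid-changing RBFOX2 sites per 1000 possible positions and 12.5 (12.3 to 12.7) enzyme-only sites, with intervals from the Poisson distribution. Mitochondrial ribosomal proteins were densest, with 44.9 (39.7 to 50.5) and 43.6 (38.5 to 49.1), led by MRPS23 and MRPS5 with 15 RBFOX2 sites each and by MRPS2 with 17 enzyme-only sites. The nuclear-encoded respiratory chain and ATP synthase followed with 42.6 and 39.4 (NDUFA9 with 21 RBFOX2 sites), then proteasome subunits with 37.3 and 41.3, PSMD13 and PSMD2 holding 22 RBFOX2 sites each. Aminoacyl-tRNA synthetases had 29.8 and 29.7, and translation factors 22.3 and 22.8. Of the nuclear-encoded families the ZNF series of zinc finger proteins was sparsest, with 6.29 (5.58 to 7.07) and 6.45 (5.73 to 7.24). Depth moved with these densities. The median gene of the mitochondrial ribosomal proteins had 367 reads in the RBFOX2 library and that of the ZNF series 43.5, against 139 over all genes, and the part of depth was not tested.

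**Figure D5:**
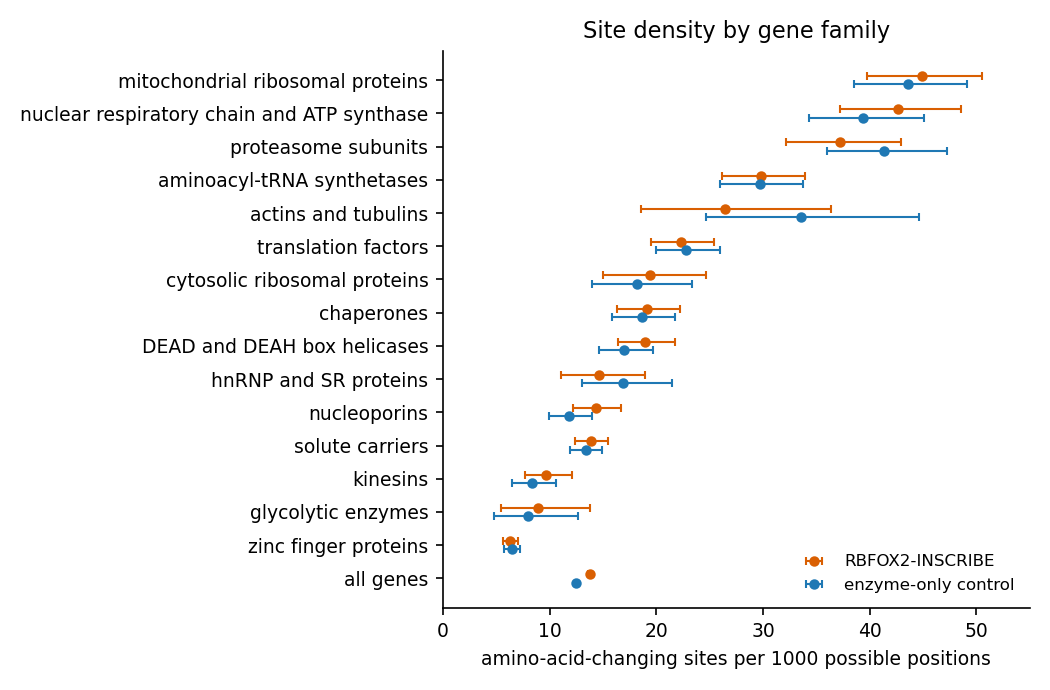
Amino-acid-changing sites per 1000 possible positions in 15 gene families and over all genes, in the RBFOX2-INSCRIBE library (orange) and the enzyme-only control (blue). Bars are exact Poisson 95% intervals of counting error; the densities of the libraries lie close to each other within families and range from 6.29 and 6.45 in zinc finger proteins to 44.9 and 43.6 in mitochondrial ribosomal proteins.

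Density did not follow depth in every family. In genes of 500 reads or more, sites of 1 converted read are not listed, and the part of this limit in the densities was not tested. Proteasome subunits, with a median of 609 reads in the RBFOX2 library, were both deep and among the densest, as given above, but other deep families were not. Cytosolic ribosomal proteins, with a median of 674 reads in the RBFOX2 library, had 19.4 (14.99 to 24.7) and 18.2 (13.96 to 23.3) sites per 1000 possible positions. Of the RBFOX2 ones 53.0% had at least 2 reads, which the listing limit requires of every site in genes of 500 reads or more. Splicing proteins of the hnRNP and SR families, with a median of 920.5 reads, had 14.6 and 16.9. A or U stood before the C at 84.2% of their 57 RBFOX2 sites and 65.2% of their 66 enzyme-only sites. Over all genes of 500 reads or more these shares were 83.9% and 75.1%, so the RBFOX2 share was near that of other deep genes. Glycolytic enzymes, with a median of 427.5 reads, had 8.89 and 8.004. Of the mitochondrially encoded proteins, MT-ND1 held the 2 members found there, both in the control. Under the common read minimum, chaperones had 163 against 120 sites (1.36, 1.07 to 1.73) and proteasome subunits 193 against 147 (1.31, 1.05 to 1.64), with intervals that included the ratio of 1.17 over all genes. Zinc finger proteins, with 235 against 259 sites (0.907, 0.757 to 1.09), were the only one of the families with sites in both libraries whose interval lay wholly below that ratio.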

How the data were processed

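The edit tables of 2 HEK293T libraries were analysed, 1 RBFOX2 and 1 enzyme-only, grouped by their labels. Per the labels, libraries were made with a PacBio Iso-Seq kit and the build was hg38. The study's methods name another kit, pbmm2 alignment, primary alignments and the authors' own edit caller, and whether they apply to these tables is not given in the sources used here. The deposited values of a site are a count of reads with the C converted and a count of all reads assigned to the gene. The deposited edit fraction is the former over the latter, not over the reads at the position. A deposited confidence score was not used. Every listed fraction exceeded 0.2%. The deposited isoform models gave exons only. Removal of dbSNP variants was not repeated.

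Gene reads summed to 2431345 (RBFOX2) and 2233600 (enzyme-only). Canonical coding sequences of GENCODE 44 were read from hg38 with pysam 0.24.0 and translated with the standard or mitochondrial code, which was checked against the GENCODE transcripts. A position in several canonical coding sequences was given to the MANE Select transcript first. Expected shares were means over all possible positions of each gene, weighted by its number of sites. Intervals came from scipy 1.17.1. The calculations were tested on simulated sites. No p-value was computed, since each group held 1 library.

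Named sites were the 10 with the most converted reads in each library and the 6 best supported RBFOX2 sites near UGCAUG, leaving out fractions over 30%. Named genes were the 5 highest and 5 lowest by log2 ratio, the 4 with the most sites in each library, the genes discussed in the study and 16 gene families. The members and lists were chosen with earlier results of these data known. Alternatives were other read minimums, site filters, transcripts, motif windows, expected numbers and pseudocounts.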

Additional observations from a re-analysis of the deposited data

How the results depend on the processing

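No paired analysis was possible because each group held 1 library. Of 262 values recomputed under the alternatives, 4 changed side of 1. With at least 2 converted reads, histidine to tyrosine in the RBFOX2 library moved to 1.01 and serine to leucine in the control to 0.951, both with intervals that include 1. The motif ratio of the control, 0.947 with an interval that includes 1, moved to 1.00 (0.917 to 1.09) with sites listed in both libraries kept and to 1.04 (0.998 to 1.08) with a window of 200 nt. Asking for at least 2 converted reads left 2874 and 2045 sites, with an amino-acid-changing share of 45.3% and 46.6%. It gave a threonine to isoleucine ratio of 2.27 and 1.82, A or U before the C at 84.9% and 75.8% and, in the RBFOX2 library, a motif ratio of 1.63. Keeping sites listed in both libraries gave threonine to isoleucine 1.70 and 1.52, A or U 67.5% and 62.1%, and 13.1% and 10.3% of sites with at least 2 reads. Asking for an exchange in every transcript gave a share of 46.4% in each library. At least 2 reads were found at 5.59% and 3.98% of sites in genes of at most 500 reads, and at least 3 reads at 3.102% and 1.80% of all sites. Weighting expected numbers by possible positions gave threonine to isoleucine 1.69 in the RBFOX2 library, and a window of 200 nt a motif ratio of 1.06 (1.02 to 1.10), which overlapped with that of the control. With at least 20 sites per gene, 64 genes lay over a log2 ratio of 1 and 51 under −1. The cause of these differences was not tested, apart from the fewer sites or genes that a stricter filter leaves. The other values stayed within the interval of the main value or, for numbers of sites and genes, within 1.5 times it, except for 29 values of single exchanges, which moved beyond that interval but stayed on the same side of 1. Most sites rest on 1 converted read, and sequencing errors and true conversions cannot be told apart at that depth.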
